A study of Arabidopsis thaliana with 23 samples.

Results

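The comparison described here sets 2 arrays of Arabidopsis thaliana seedlings given 100 nM indole-3-acetic acid (IAA) against 2 arrays of mock-treated seedlings, which carry the same replicate numbers, 4 and 5, in their titles. These 4 arrays are part of a series of 23 Affymetrix ATH1 arrays, each holding 1 RNA sample from whole seedlings of the ecotype Col-0. The members were taken by title alone, and no measured value chose them. All seedlings grew on agar for 6 or 7 days, spent 1 day in shaken liquid culture and were then treated for 3 h. Beside them stand 3 arrays of 1 µM IAA and 3 of mock, numbered 1 to 3, and, in the set numbered 4 and 5, 2 arrays of 10 µM PPBo with 1 µM IAA as labelled and 2 of PPBo alone. PPBo is an inhibitor of the YUCCA enzymes that make IAA. Of the other arrays numbered 1 to 3, 3 each were given 30 µM kynurenine, 10 µM PEO-IAA, or 10 µM PEO-IAA with 1 µM IAA. These arrays also enter the fit of all 23 arrays and so its estimate of the spread. Whether replicates were separate cultures is not given in the labels, and the p-values therefore rest on a spread between arrays that may be purely technical.

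IAA is the main natural auxin of plants. It joins the TIR1/AFB receptors to Aux/IAA repressors, which are then degraded, and auxin response factors become free to act on their target genes. Early targets include the Aux/IAA genes themselves, the GH3 genes, whose enzymes couple IAA to amino acids and so lower the free hormone, and transcription factors such as the LBD proteins of lateral root formation. In seedlings, auxin also acts on cell elongation and on root growth, which involve enzymes of the cell wall, among them expansins, xyloglucan endotransglucosylases and class III peroxidases.

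The 2 groups had the smallest spread between replicates of the 9 groups in the series. Across probe sets, the 2 IAA arrays correlated at 0.992 and the 2 mock arrays at 0.991, and the 4 pairs of an IAA with a mock array at 0.982 to 0.985. The spread between replicates, as the root of the mean variance within a group on the log2 scale, was 0.159 with 100 nM IAA and 0.168 in this mock group, against 0.185 to 0.459 in the other 7 groups and highest in the 1 µM IAA group. The ratio of 3′ to 5′ GAPDH signal, which grows as RNA degrades, was 1.19 to 1.54 on the 4 arrays and 24.4 on the third 1 µM IAA array. Reference genes had log2 changes of 0.01 ± 0.19 for TIP41, -0.02 ± 0.18 for SAND and 0.11 ± 0.18 for UBC21 (± SE). The root marker PYK10, a beta-glucosidase of the endoplasmic reticulum, had signals of 15610 and 14830 with IAA, against 14891 and 14856 in mock. No shoot marker of the list was tested, so the seedling label was checked on the root side only.

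Changes are log2 fold changes of 100 nM IAA over mock ± SE from a fit of all 23 arrays with limma, and probe sets with an adjusted p below 0.05 count as called. Of 15922 probe sets tested, 51 (0.320%) were called, 28 higher (0.176%) and 23 lower (0.144%) with IAA. Of these, 23 name 1 gene, 3 name several and 25 carry no gene name here. Log2 changes of the called probe sets ran from 0.92 to 4.31 among those that rose, with a median of 1.57, and from -4.06 to -0.99 among those that fell, with a median of -1.76. Over all tested probe sets the median was 0.02, and 54.4% were above 0. All 51 called probe sets had IAA and mock arrays that did not overlap, as had 44.6% of all tested probe sets (24.3% with IAA higher and 20.3% with IAA lower). An unadjusted p below 0.05 was reached by 618, fewer than the 796.1 that uniform p-values would give.

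The count depended on which arrays gave the estimate of the spread. With the 4 arrays alone, 480 probe sets (3.01%) were called, 179 higher (1.12%) and 301 lower (1.89%), and with the 8 arrays of replicates 4 and 5 alone 297 (1.87%), of which 104 were higher (0.653%) and 193 lower (1.21%). All 51 calls were among both. Without the third 1 µM IAA array the count was 71, again with all 51. Leaving out mock replicate 4 gave 19 calls and leaving out mock replicate 5 gave 12, while 16 were left without IAA replicate 4 and 25 without IAA replicate 5, where a lone array was taken to vary like the other groups, and 9 of the 51 calls held in all 4 of these fits. A permutation of 2 against 2 arrays cannot give a two-sided p below 0.333, so no such test was run.

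**Figure D1:**
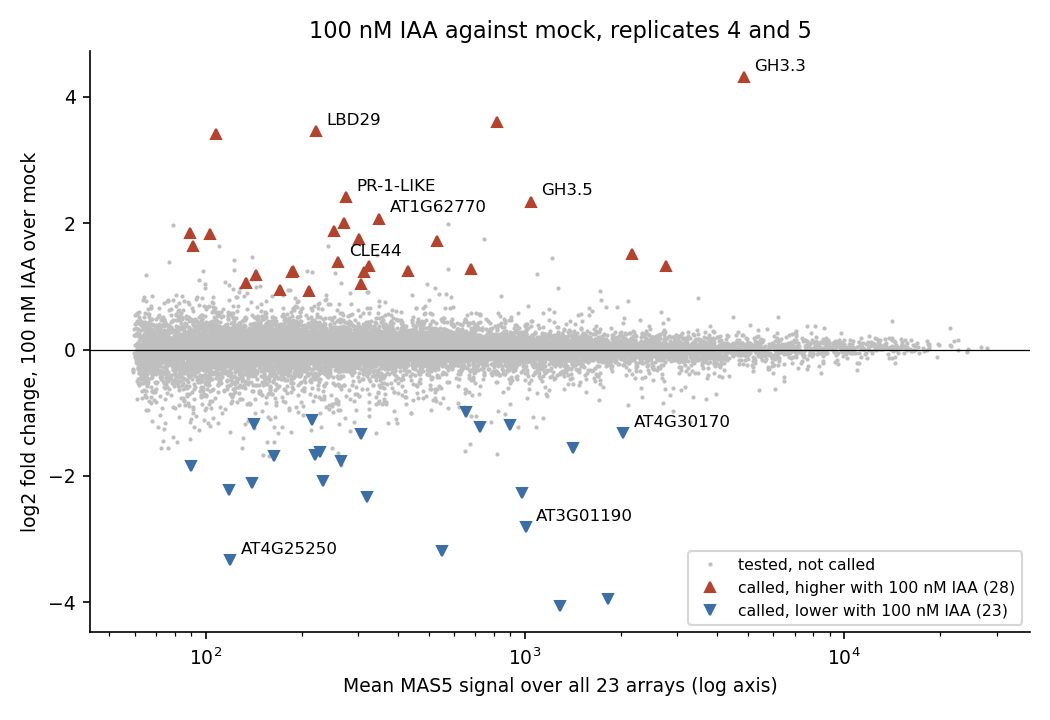
Log2 fold change of 100 nM IAA over mock (vertical axis) against the mean MAS5 signal over all 23 arrays (horizontal log axis) for 15922 tested probe sets. Triangles are the 28 called as higher and the 23 called as lower; GH3.3 lies at the top at 4.31, and called probe sets occur from dim to bright signals.

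GH3.3 had the highest change of all called probe sets. GH3.3 (AT2G23170), an enzyme that conjugates IAA to amino acids, had signals of 9197 and 8028 with 100 nM IAA, against 385 and 474 in mock. Both IAA arrays lay far above both mock arrays, and the ratio of means was 20.1. The log2 change was 4.31 ± 0.52 (adjusted p = 0.000304), and the call held whichever of the 4 arrays was left out. GH3.5 (AT4G27260), a related conjugating enzyme, had signals of 2312 and 2198 with IAA, against 475 and 407 in mock. It rose by 2.34 ± 0.34 (adjusted p = 0.00138), and its adjusted p was 0.0506 without mock replicate 5. In bulk tissue, more transcript per cell and more cells that express a gene cannot be told apart.

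The other 5 tested genes of auxin conjugation and oxidation did not pass. GH3.17, which conjugates IAA to glutamate, was at 0.36 ± 0.36 and GH3.9 at 0.13 ± 0.27. The oxidase gene DAO1 was at -0.07 ± 0.24, and the related DAO2 at -0.68 ± 0.50. DAO2 had signals of 359 and 286 with IAA, against 498 and 542 in mock, so that the groups did not overlap. With the 4 arrays alone it was called as lower (adjusted p = 0.0157). Among all tested probe sets, 44.6% did not overlap and 1.89% were called as lower with the 4 arrays alone. The glucosyltransferase UGT74D1 was at -0.15 ± 0.22. Over the list, 2 of 7 rose and none fell in the limma fit of all arrays, beside 0.176% and 0.144% of all tested probe sets. The same 2 had an unadjusted p below 0.05, as had 618 of all 15922, and the median was 0.13.

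Among auxin-induced transcription factors, LBD29 (AT3G58190), which promotes lateral root formation, had signals of 480.5 and 428 with IAA, against 30.6 and 38.5 in mock. Its mock signals were dim, both IAA signals stood far above them, and the ratio of means was 13.2, an uncertain size with so dim a mock. It rose by 3.46 ± 0.56 (adjusted p = 0.00475), and its adjusted p lay between 0.0638 and 0.105 with each of the 4 arrays left out and at 0.102 with a pseudocount of 1. HAT2 (AT5G47370), a class II homeodomain-leucine zipper factor, had signals of 745 and 723 with IAA, against 376 and 367 in mock. Replicates lay close together and the groups well apart, with a log2 change of 0.97 ± 0.22, which did not pass in the fit of all arrays (adjusted p = 0.0774) and did with the 4 arrays alone (adjusted p = 0.000265). LBD16, another lateral root factor, was at 0.30 ± 0.41, with 113 and 97.3 against 91.8 and 76.2 in mock. Of these 3 tested factors, out of 22 listed, 1 rose and 2 were not called, beside 0.176% of all tested probe sets that rose.

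No Aux/IAA repressor gene was called by limma of the 2 tested, out of 29 listed, and 1 had an unadjusted p below 0.05. Only 7 of the 29 had a probe set naming 1 gene here, so the result does not describe the family. IAA29 (AT4G32280) had signals of 113 and 104 with IAA, against 46.4 and 45.5 in mock, a log2 change of 1.12 ± 0.30 (adjusted p = 0.227, and 0.0216 with the 4 arrays alone). IAA18 was at 0.24 ± 0.24. The biosynthesis gene YUC2, which encodes a YUCCA flavin monooxygenase, was at -0.29 ± 0.21, the tryptophan pathway gene IGPS at -0.15 ± 0.36 and the kinase gene WAG2, which acts on auxin transport, at 0.41 ± 0.35, and none of these was called.

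Other named genes that rose were PR-1-LIKE, AT1G62770, CLE44, AT1G67750 and AT1G77280. AT1G62770 had signals of 855 and 699 with IAA, against 155 and 206 in mock, rose by 2.07 ± 0.26 (adjusted p = 0.000479) and held whichever of the 4 arrays was left out. PR-1-LIKE (AT2G19990), named for its likeness to a pathogenesis-related protein, had 828 and 872 with IAA, against 171 and 139 in mock. Its change of 2.41 ± 0.51 passed narrowly (adjusted p = 0.0499) and did not pass with any of the 4 arrays left out (adjusted p from 0.250 to 0.592), while it passed under 10 of 15 other settings. CLE44 (AT4G13195), which encodes a peptide signal of vascular development, had 461 and 471 with IAA, against 174 and 174 in mock, and rose by 1.38 ± 0.26 (adjusted p = 0.0177). AT1G67750 rose by 1.27 ± 0.22 and AT1G77280 by 1.03 ± 0.18 (adjusted p = 0.00987 each). Calls of CLE44, AT1G67750 and AT1G77280 ended with each of the 4 arrays left out, with adjusted p up to 0.232, 0.190 and 0.153.

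Dimmer genes that rose were AT4G37295 by 1.88 ± 0.33, AT5G65320 by 1.83 ± 0.26 and AT3G51410 by 1.64 ± 0.32, the last 2 of which were named after their values were seen. AT4G37295 had signals of 322.5 and 362 with IAA, against 81.8 and 93.6 in mock. AT5G65320 had 202 and 207 with IAA, against 44.4 and 60.5 in mock. In none of these genes did the groups overlap, nor did they in 44.6% of all tested probe sets (24.3% with IAA higher). With each of the 4 arrays left out in turn, AT5G65320 was called 3 times and the others 0 times, with adjusted p up to 0.0553 for AT5G65320, 0.184 for AT4G37295 and 0.316 for AT3G51410.

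**Figure D2:**
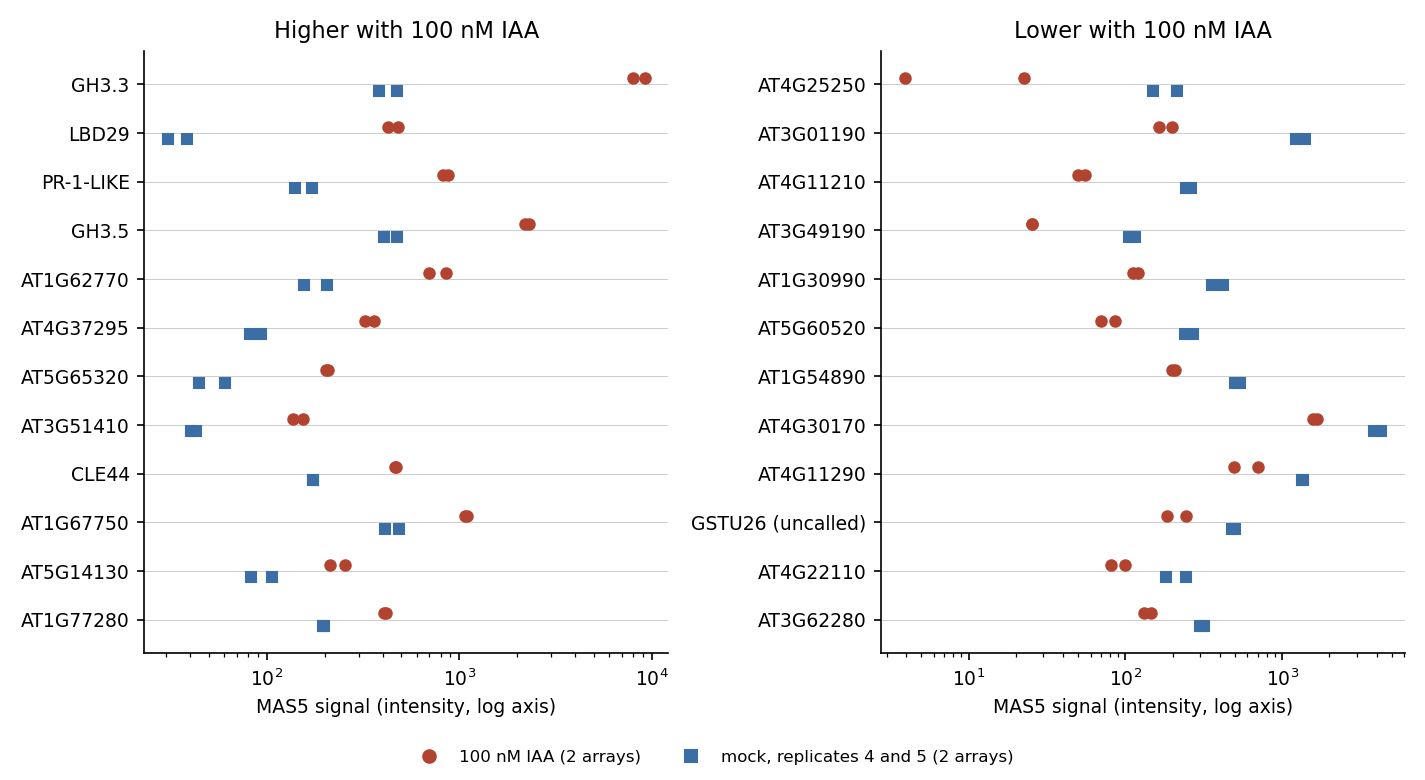
MAS5 signal (log axis) on each of the 4 arrays for the named genes that were higher (left) or lower (right) with 100 nM IAA, with circles for IAA and squares for mock. The groups do not overlap in any gene shown, nor in 44.6% of all tested probe sets. GSTU26 is shown as not called, and AT4G25250 is the one with the widest gap between its 2 IAA arrays, 3.91 and 22.6.

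The class III peroxidases, secreted heme enzymes that act on cell wall polymers and reactive oxygen, held 3 of the 11 called genes that fell. Their membership was taken from a list of 73 loci from general knowledge, of which 37 were tested. The list was chosen with earlier results of these data known, so its counts are description only and no independent support. AT3G01190 had signals of 198 and 165 with IAA, against 1228 and 1395 in mock, so the mock mean was 7.23 times the IAA mean. Its log2 change was -2.81 ± 0.41 (adjusted p = 0.00166, and 0.0506 without mock replicate 5). AT4G30170 had signals of 1667 and 1577 with IAA, against 3846 and 4263 in mock, and its log2 change of -1.32 ± 0.16 (adjusted p = 0.000355) held whichever of the 4 arrays was left out. With all 5 mock arrays as 1 control it did not pass (adjusted p = 0.128), its mock mean being 4055 ± 295 in replicates 4 and 5 (n = 2) and 2203 ± 314 in replicates 1 to 3 (n = 3).

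AT4G11290 had signals of 491 and 696 with IAA, against 1330 and 1360 in mock, a log2 change of -1.19 ± 0.19 (adjusted p = 0.00340). Its adjusted p was 0.157 with IAA replicate 4 left out, and 0.0613 and 0.0753 with mock replicate 4 or 5 left out. The peroxidase AT5G14130 went the other way, with 253 and 212 with IAA, against 106 and 83.0 in mock, and rose by 1.24 ± 0.25 (adjusted p = 0.0249). It did not pass with any of the 4 arrays left out (adjusted p from 0.104 to 0.580), nor after quantile normalization (adjusted p = 0.0774).

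In all, 3 of the 37 tested peroxidases fell and 1 rose, beside 0.144% and 0.176% of all tested probe sets, and the median over the 37 was -0.07, against 0.02 over all. In 21 of the 37 the groups did not overlap, as in 44.6% of all tested probe sets, which is too common a pattern to be read as a result about peroxidases. With the 4 arrays alone, 10 were lower and 3 higher, beside 1.89% and 1.12% of all. Among those, AT5G17820 had signals of 571 and 569 with IAA, against 1197 and 1341 in mock (-1.14 ± 0.35; adjusted p = 0.388 in the fit of all arrays and 6.83e-05 with the 4 arrays). AT4G26010 had 603 and 621 with IAA, against 1086 and 1236 in mock (-0.91 ± 0.50; adjusted p = 0.000359 with the 4 arrays, not called with all). AT2G18980 was higher there, with 1760 and 1740 with IAA, against 1099 and 1200 in mock (adjusted p = 0.00207 with the 4 arrays, 0.560 with all). The brightest tested member, AT4G21960, was at -0.07 ± 0.14.

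Outside the peroxidases, AT1G30990 had 112 and 120 with IAA, against 356 and 419 in mock, a log2 change of -1.67 ± 0.23 (adjusted p = 0.00126, and 0.0504 without mock replicate 5). AT1G54890 had 199 and 207 with IAA, against 504 and 541 in mock, a log2 change of -1.33 ± 0.23 (adjusted p = 0.00659, and 0.0858 to 0.141 with each of the 4 arrays left out). Both genes were lower on each IAA array than on each mock array, as were 20.3% of all tested probe sets. AT4G25250 was dim with IAA, at 3.91 and 22.6, against 151 and 213 in mock, and its log2 change of -3.33 ± 0.52 depends on the pseudocount. AT5G60520 was at -1.62 ± 0.25. A further 4 called genes, named after their values were seen, were AT4G11210 at -2.11 ± 0.41, AT3G49190 at -1.84 ± 0.26, AT4G22110 at -1.17 ± 0.24 and AT3G62280 at -1.12 ± 0.18. With each of the 4 arrays left out in turn, AT3G49190 was called 3 times, AT4G25250 and AT5G60520 2 times, and the other 3 genes 0 times, with adjusted p up to 0.824 for AT4G22110.

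Among detoxification genes, none of 8 tested was called by limma, beside 0.320% of all tested probe sets. An unadjusted p below 0.05 was reached by 2 of the 8, as by 618 of all 15922. The tau-class glutathione transferase GSTU26 had signals of 184 and 244 with IAA, against 475.5 and 501 in mock, a log2 change of -1.17 ± 0.25 (adjusted p = 0.0537). GSTU28, of the same class, had 69.3 and 79.7 with IAA, against 246 and 258 in mock, a log2 change of -1.66 ± 0.39 (adjusted p = 0.0967). The glucosyltransferase UGT71C1 had 227 and 206 with IAA, against 401 and 375 in mock, at -0.82 ± 0.53. In these 3 genes the groups did not overlap. With the 4 arrays alone all 3 were called as lower (adjusted p = 0.00116, 0.000275 and 0.00410), beside 1.89% of all tested probe sets. Over the 8, the groups did not overlap in 4, as in 44.6% of all tested probe sets. The median over the 8 was -0.19.

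Of 11 genes of cell wall loosening, none was called by limma, beside 0.320% of all tested probe sets. An unadjusted p below 0.05 was reached by 3, as by 618 of all 15922. The median was -0.12, against 0.02 over all. The expansin EXPA8 had signals of 574 and 644 with IAA, against 312 and 335 in mock (0.90 ± 0.28; adjusted p = 0.441), and EXPA15 had 488 and 507, against 696 and 798 in mock (-0.58 ± 0.16; adjusted p = 0.288). The expansin EXPB1 had 75.0 and 65.2 with IAA, against 116 and 167 in mock (-0.92 ± 0.24; adjusted p = 0.197, and 0.0521 with the 4 arrays alone). With the 4 arrays alone, EXPA8 was called as higher (adjusted p = 0.00111) and EXPA15 as lower (adjusted p = 0.0109), beside 1.12% and 1.89% of all tested probe sets. The 2 tested root hair genes, the expansins EXPA7 and EXPA18, were at -0.66 ± 0.48 and -0.42 ± 0.28. The evening clock gene GI was at 0.04 ± 0.28. Of 3 tested genes of stress and wounding none was called by limma and 0 had an unadjusted p below 0.05, with the cold-induced COR15A at -0.82 ± 1.49, the defensin PDF1.2 at -0.77 ± 0.46 and the stress-induced factor ZAT10 at -0.14 ± 0.82, a median of -0.77.

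**Figure D3:**
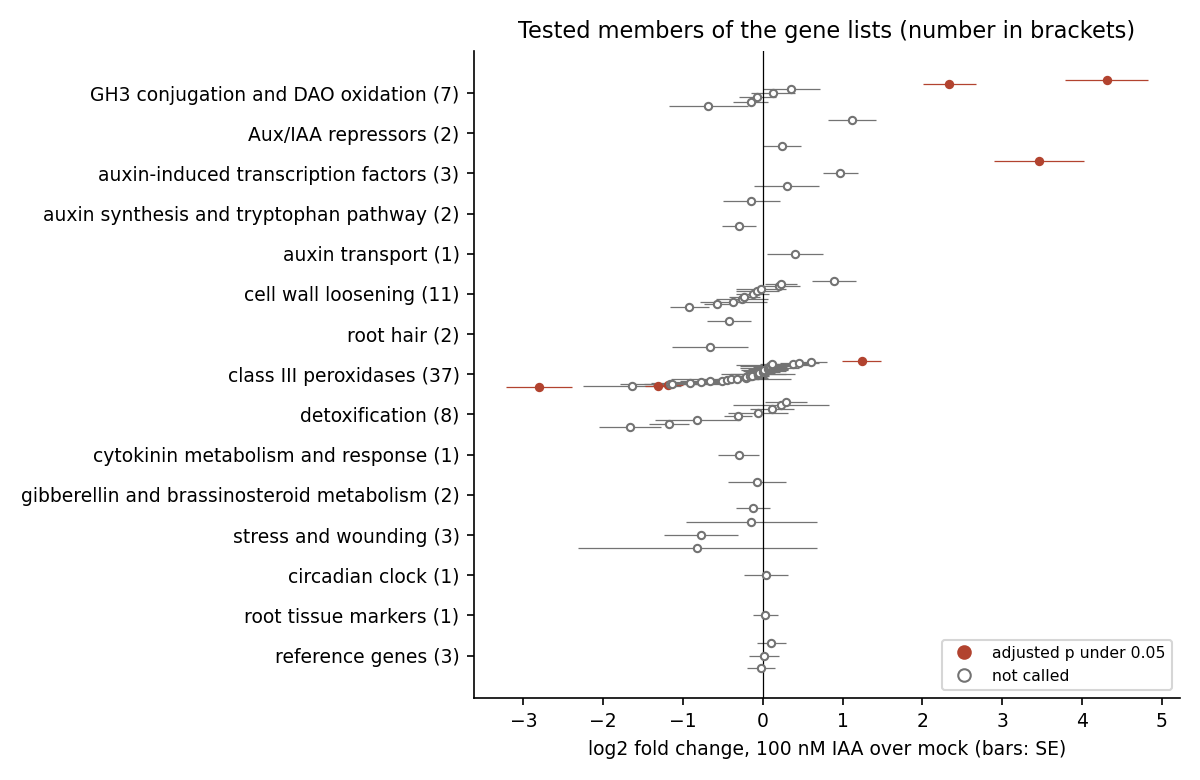
Log2 fold change of 100 nM IAA over mock ± SE for each tested member of 15 gene lists, with the number tested in brackets; filled points passed an adjusted p of 0.05. GH3.3, GH3.5, LBD29 and the peroxidase AT5G14130 passed above 0, and 3 class III peroxidases passed below 0.

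The response to 1 µM IAA was measured on other arrays, 3 treated and 3 mock of replicates 1 to 3, so the 2 comparisons share no array, while dose and replicate set cannot be told apart. The mock groups of the 2 sets themselves differed in 838 probe sets. With 1 µM IAA 337 probe sets (2.12%) were called, 145 higher (0.911%) and 192 lower (1.21%). Of the 28 that rose with 100 nM IAA, all 28 were above 0 with 1 µM IAA and 26 were called, which is 26 of the 145 that rose there, with medians of 1.57 at 100 nM and 1.62 at 1 µM. Of the 23 that fell, all 23 were below 0 and 19 were called, of the 192 that fell with 1 µM, with medians of -1.76 at 100 nM and -1.58 at 1 µM. Over all tested probe sets the median with 1 µM IAA was 0.0004. Probe sets chosen at 1 dose have their changes at that dose drawn away from 0 by the choice.

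Read from the higher dose, 143 of the 145 that rose with 1 µM IAA were above 0 with 100 nM, with a median of 0.68 at 100 nM and 1.07 at 1 µM. Of the 192 that fell, 187 were below 0 with 100 nM, with a median of -0.53 at 100 nM and -1.05 at 1 µM. With the 4 arrays alone, 75 of the 145 and 86 of the 192 were called in the same direction at 100 nM. Across all 15922 probe sets the 2 responses correlated at 0.495 (Pearson) and 0.319 (Spearman), which describes these arrays only, since genes are not independent replicates.

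The difference between the 2 responses was tested itself, and no probe set was called by limma (0 of 15922). An unadjusted p below 0.05 was reached by 448, fewer than the 796.1 that uniform p-values would give. The smallest p-value of the difference belonged to IAA29. Its signals were 476 to 586 with 1 µM IAA, against 39.5 to 63.4 in the mock of that set, and its response was greater at 1 µM than at 100 nM by 2.13 ± 0.39 (adjusted p = 0.188). HAT2 had 1227 to 1502 with 1 µM IAA, against 234 to 291 in that mock, a difference of 1.43 ± 0.28 (adjusted p = 0.197). For GH3.3 the difference was 1.19 ± 0.67 and for LBD29 0.74 ± 0.73. GH3.5 differed by 0.22 ± 0.43, AT1G62770 by -0.09 ± 0.34 and AT3G01190 by -0.07 ± 0.53. UGT71C1, among the genes most lowered by 1 µM IAA, differed by -1.62 ± 0.68, and LBD16 by 1.06 ± 0.53, none of which passed. All these differences include the third 1 µM IAA array, whose GAPDH ratio was 24.4. On it GH3.5 was at 1665, against 2944 and 3192 on the other 1 µM IAA arrays. AT1G62770 was at 525, against 688 and 657, and AT3G01190 at 296, against 131 and 97.3. LBD29 was at 471, against 836 and 849, and LBD16 at 196, against 225 and 236. Other genes were not weaker on it: IAA29 was at 586, against 476 and 519, and HAT2 at 1476, against 1227 and 1502. GH3.3 was at 13866, against 12714 and 15254. Without that array 0 dose differences were called.

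The other genes among the 10 highest and 10 lowest with 1 µM IAA were not called with 100 nM. AT5G62280 had signals of 1080 and 1087 with 100 nM IAA, against 441 and 448 in mock, a log2 change of 1.27 ± 0.34 (adjusted p = 0.227, and 2.15e-05 with the 4 arrays alone), beside 2.44 ± 0.28 with 1 µM. AT4G37290 was at 1.47 ± 0.42 with 100 nM and 2.71 ± 0.34 with 1 µM, AT5G67430 at 1.25 ± 0.64 and 2.81 ± 0.53, and AT1G30760 at 0.94 ± 0.48 and 2.17 ± 0.39. Among those lowered by 1 µM, AT3G62040 had 464 and 449 with 100 nM IAA, against 548 and 426 in mock, so the groups overlapped. Its log2 change was -0.08 ± 0.38 with 100 nM and -1.63 ± 0.31 with 1 µM. AT3G01260 was at -0.48 ± 0.38 with 100 nM and -1.63 ± 0.31 with 1 µM, and AT4G02850 at -0.51 ± 0.21 and -1.56 ± 0.17. None of these dose differences passed.

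**Figure D4:**
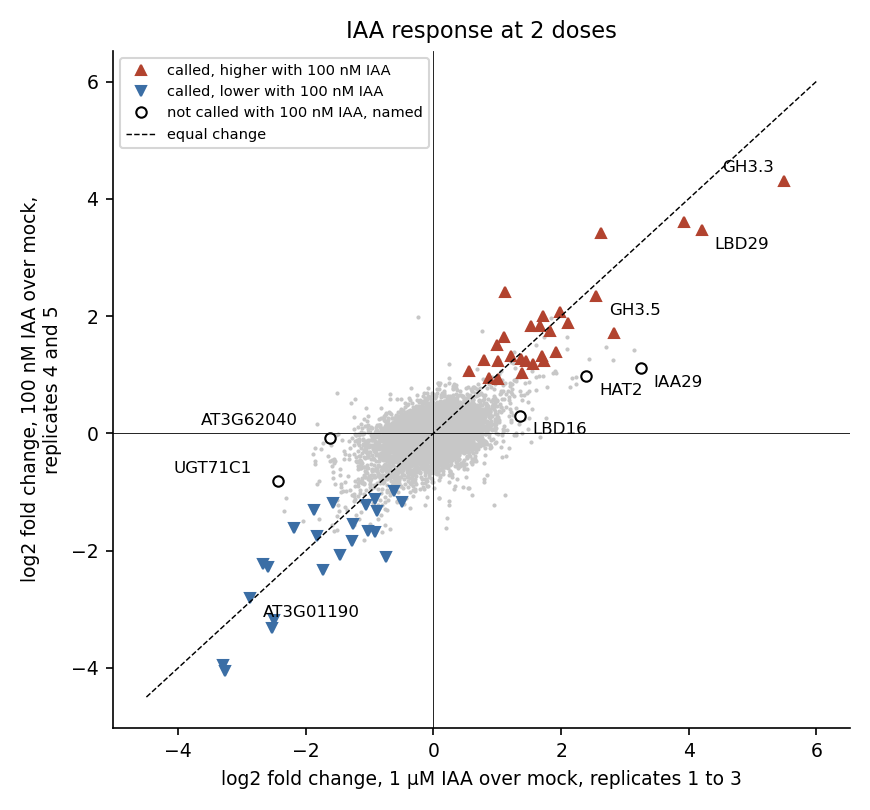
Log2 fold change with 100 nM IAA (vertical axis, replicates 4 and 5) against that with 1 µM IAA (horizontal axis, replicates 1 to 3) for 15922 probe sets, with the line of equal change dashed. The 51 probe sets called with 100 nM IAA keep the same sign with 1 µM; IAA29 and HAT2 lie to the right of the line, at 1.12 and 0.97 with 100 nM IAA and 3.25 and 2.40 with 1 µM, while GH3.5 and AT3G01190 lie near it.

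Within the same replicate set, IAA was also given beside PPBo, labelled as 1 µM, a dose that differs from 100 nM. GH3.3 averaged 8290 ± 1473 with PPBo and IAA (SD, n = 2) and 10.9 ± 0.04 with PPBo alone (n = 2), while it averaged 8613 ± 827 with 100 nM IAA (n = 2) and 429 ± 62.9 in mock (n = 2). The IAA-treated signals of GH3.3 thus overlapped and the untreated ones did not. The signals with PPBo alone lie close to the pseudocount of 7.56, so the size of the log2 response of GH3.3 beside PPBo depends on that constant. It exceeded the response to 100 nM IAA alone by 4.49 ± 0.73 (adjusted p = 0.107), by 5.10 with a pseudocount of 1 (adjusted p = 0.291) and by 3.1 with one of 41.4, the 25th percentile of all values (adjusted p = 0.0341). With only the arrays of replicates 4 and 5 the difference of 4.49 passed (adjusted p = 4.92e-07). LBD29 and IAA29 are also near the pseudocount with PPBo alone. GH3.5 averaged 2216 ± 248 with PPBo and IAA and 207 ± 10.0 with PPBo alone, beside 2255 ± 80.5 with 100 nM IAA and 441 ± 47.8 in mock. LBD29 averaged 432 ± 24.3 with PPBo and IAA and 14.7 ± 18.0 with PPBo alone, beside 454 ± 36.8 with 100 nM IAA and 34.5 ± 5.56 in mock.

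HAT2 and IAA29 were lower with PPBo and IAA than with 100 nM IAA on every array. HAT2 averaged 488 ± 52.5 with PPBo and IAA and 117 ± 5.26 with PPBo alone, beside 734 ± 15.7 with 100 nM IAA and 371 ± 6.44 in mock. IAA29 averaged 69.4 ± 1.99 with PPBo and IAA and 12.2 ± 6.66 with PPBo alone, beside 108 ± 6.84 with 100 nM IAA and 45.9 ± 0.67 in mock. AT3G01190 averaged 167 ± 19.3 with PPBo and IAA and 979 ± 107 with PPBo alone, beside 181 ± 23.7 with 100 nM IAA and 1311 ± 118 in mock. The difference between the 2 responses was called for 0 probe sets by limma, and for 8 with only the arrays of replicates 4 and 5. In the fit of all arrays 240 had an unadjusted p below 0.05, fewer than the 796.1 that uniform p-values would give. Among the 51 probe sets called with 100 nM IAA, all 28 that rose were above 0 beside PPBo (median 1.78) and all 23 that fell were below 0 (median -1.34).

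**Figure D5:**
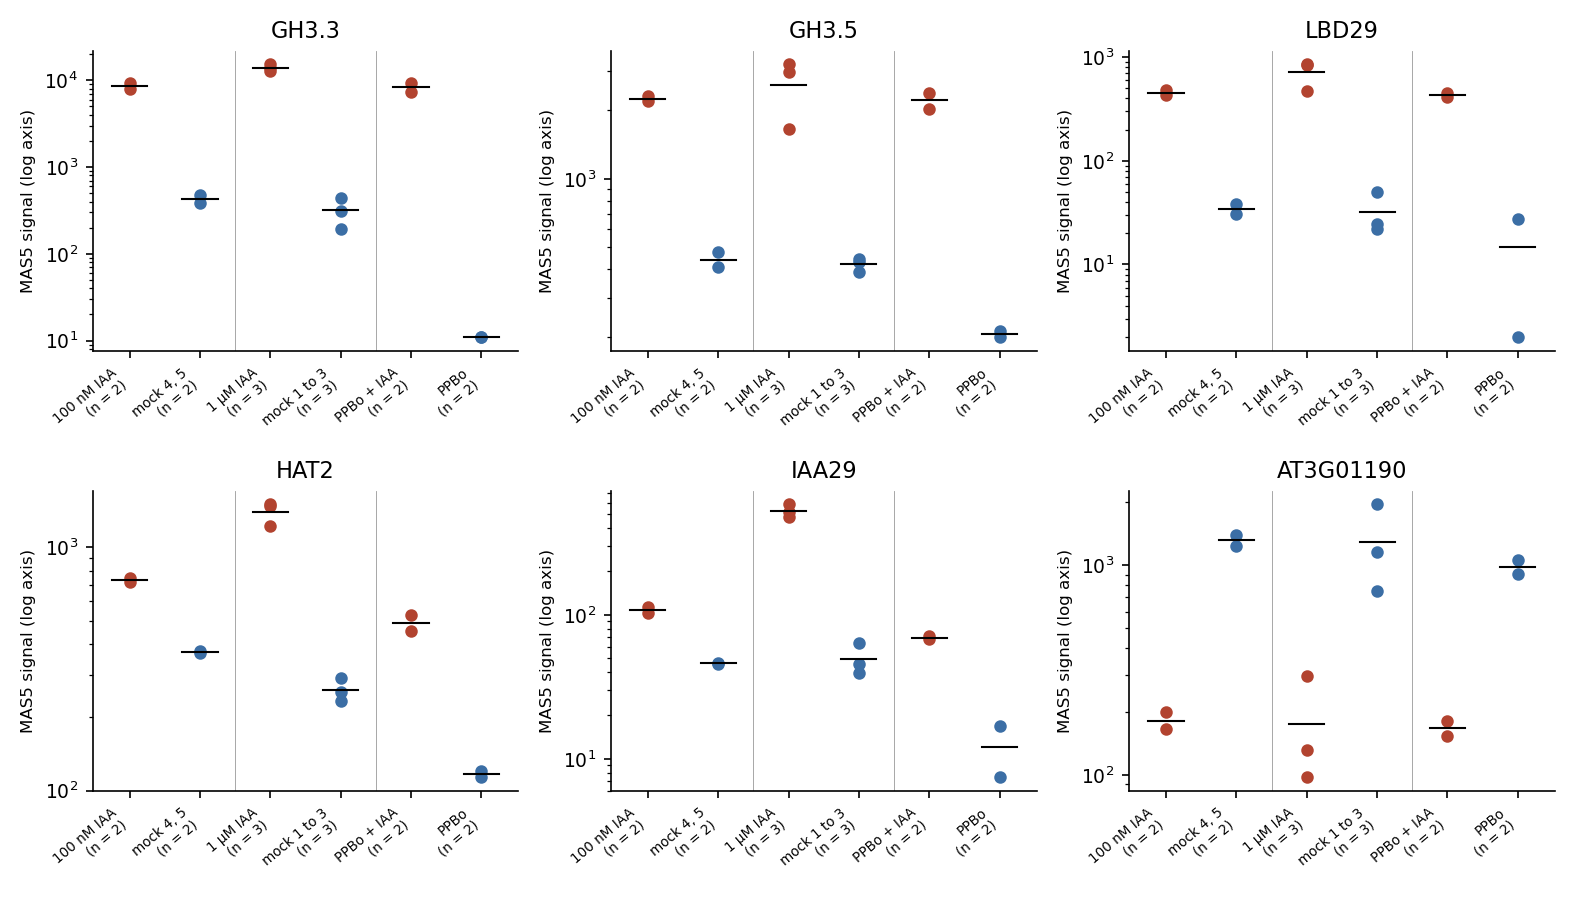
MAS5 signal (log axis) of 6 genes on each array of 6 groups, with points for arrays and lines for means; IAA-treated groups stand left of their own controls. GH3.3, GH3.5, LBD29 and AT3G01190 show similar IAA-treated levels at 100 nM and beside PPBo, while IAA29 and HAT2 are lower beside PPBo. Means of GH3.3, GH3.5, LBD29, HAT2 and IAA29 are all highest with 1 µM IAA among these 6 groups.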

How the data were processed

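Each array holds 1 deposited intensity per probe set, computed by the authors with MAS5 on a linear scale, per the submitters' processing notes, which give no version. Trimmed means (2%) were 500.04 to 500.05 on every array, so no further scaling was done. Detection calls were not used here, so low signals are the least certain, and the number of arrays limits the precision. The labels' protocol gives a guanidine-hydrochloride extraction and the series' design text a kit; which was used was not settled.

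Of 22810 probe sets, 64 controls were left out. Signals were taken to log2(signal + 7.56), the constant being the 10th percentile of all values, which understates changes of dim probe sets. The 15922 with a mean log2 value over all arrays above the 30th percentile were tested. This choice over the mean linear signal was made after both counts had been seen. One limma fit (3.58.1, R 4.3.3; lmFit and eBayes, trended prior) held 23 arrays as 9 group means with 14 residual degrees of freedom, with no replicate block. P-values were adjusted by Benjamini-Hochberg over all tested probe sets; all adjusted p-values come from limma. The shared spread assumes equal variance in all groups, so fits with the 4 arrays alone are given beside it. On simulated data for 100 nM IAA against mock (15922 probe sets), 62 of 100 log2 changes of 1 and 95 of 100 of 2 were recovered, with 16 false calls. The simulation gave each probe set the same spread in all groups, whereas the spread of the real groups ran from 0.159 to 0.459. It therefore cannot test the assumption of equal variance.

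Names were read from the platform annotation and updated to the TAIR10.1 gene table: 13513 probe sets name 1 gene, 503 several, 8794 are unnamed here, and 13436 matched the table. A gene with several probe sets is represented by the brightest. Of 413 loci in 20 lists, 114 were on the array under a single name and 84 entered the test; 5 lists had no tested member (SAUR, auxin receptors and response factors, ethylene, shoot markers, mitotic cell cycle). Members and lists were chosen with earlier results of these data known. The names DAO1, DAO2, IGPS, TIP41 and SAND came from these lists. Named are called probe sets with 1 gene, no overlap between groups and a higher-group mean above 379.9, the median over tested probe sets, at most 14 in each direction, filled to 6 where fewer, the 10 highest and 10 lowest with 1 µM IAA, and list members (the last 2 kinds may be named); others are said to be named after their values were seen. Alternatives were other pseudocounts, filters, normalizations, priors, array weights, controls, sets of arrays, a replicate block and leaving out single arrays. The comparison with IAA beside PPBo was added after seeing the data.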

Additional observations from a re-analysis of the deposited data

How the results depend on the processing

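For 100 nM IAA against mock, the count of 51 calls was 31 with a filter at the 50th percentile, 461 with array quality weights, 480 with the 4 arrays alone, 297 with the arrays of replicates 4 and 5 alone and 119 with all 5 mock arrays as 1 control (45 of the 51 shared), and 71 without the third 1 µM IAA array. It was 12 to 25 with single arrays left out, and 7101 probe sets had groups that did not overlap. Other settings gave counts within 1.5 times of 51, among them 57 with the filter on the mean linear signal and 41 with quantile normalization. A replicate block gave 72 over all arrays and 378 within replicates 4 and 5; deviations of same-numbered mock and 100 nM IAA arrays correlated at 0.03, and at 0.03 to 0.17 over 6 pairs of groups with only 2 numbers, so the numbers were not taken to pair the samples. Under the block over all arrays HAT2 (adjusted p = 0.0325) and AT5G17820 (adjusted p = 0.0106) gained a call.

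For 1 µM IAA, the count of 337 was 218 at the 50th percentile, 779 with weights, 55 with its own 6 arrays, 191 with replicates 1 to 3, 545 with pooled mock arrays, 903 with the replicate block and 196 to 821 with single arrays left out. The dose difference, with 0 calls, gave 1 with the pseudocount at the 25th percentile, 19 with weights, 235 with pooled mock arrays and 1 with the replicate block, and 0 with each single array left out; in the pooled setting both responses share their control. The difference from IAA beside PPBo, also with 0, gave 1 with that pseudocount, 1 with no filter, 5 with weights, 8 with its own groups, 1 with the replicate block and 18 with the block within replicates 4 and 5.

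Over 106 named or listed probe sets and 2084 values under these settings, 1936 kept their status, called or not called. A call was lost in 83 and gained in 65, and 0 called values turned direction. The 1936 include values of probe sets not called in the main fit, so they do not measure how often a call held. Non-overlap was counted for 100 nM IAA only. The dose difference has no fit on 1 replicate set. Why the settings differ was not tested.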

Other observations

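Several named genes of auxin response were too dim to be tested and are given as signals. GH3.1, another GH3 gene, had 109 and 106 with 100 nM IAA, against 40.8 and 13.2 in mock. The Aux/IAA gene IAA30 had 73.4 and 60.8 with IAA, against 33.9 and 41.4 in mock. Both were higher on each IAA array, and neither passed when no filter was set (adjusted p = 0.206 and 0.719). The listed peroxidase AT2G39040 had 19.8 and 39.1 with IAA, against 128 and 136 in mock (adjusted p = 0.124 with no filter).

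By symbol, none of 36 UGT, 17 CYP, 9 GSTU, 7 XTH and 6 WRKY probe sets was called with 100 nM IAA by limma over all arrays, and 1, 0, 2, 0 and 0 of them had an unadjusted p below 0.05. Over all tested probe sets 0.320% were called and 618 of 15922 had such a p. At that share few if any calls would fall in sets this small, so the absence of calls says little about a family. The 2 GSTU genes with such a p were GSTU26 and GSTU28, and no set test was run. Family medians, in the same order, were -0.06, -0.14, 0.04, -0.19 and -0.01. With the 4 arrays alone, 2 UGT and 2 GSTU genes were lower, beside 1.89% of all tested probe sets. Of the called probe sets with no gene name here, 2 of the 3 with the highest log2 change had IAA means 13.1 and 4.20 times their mock means, and the other had signals of 291 and 240 with IAA, against 10.6 and 28.4 in mock, too dim for a fold. The 3 with the lowest had mock means 9.76, 5.31 and 4.93 times their IAA means.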
